A study of Homo sapiens with 8 samples.

Results

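Immune checkpoint ligands are surface or secreted proteins through which a tumour cell engages inhibitory receptors of T cells, NK cells and macrophages. The 10 genes described here were chosen by symbol from the 61228 gene names of the count tables: CD274, PDCD1LG2, CD276, VTCN1, HHLA2, LGALS9, PVR, NECTIN2, CD47 and TNFRSF14. All 10 were found in every table, and 9 passed the filter on low counts, HHLA2 being the exception. RNA was sequenced from cultures of H1975 and of HCC44, which are established lines of human non-small cell lung cancer and carry the label wild type, after 96 hours with the solvent DMSO or with ACBI1. ACBI1 is a degrader that recruits the VHL ubiquitin ligase to proteins of the SWI/SNF chromatin remodellers (SMARCA2, SMARCA4 and PBRM1), and since it acts on protein, transcripts of these targets do not check the labels. The labels give its concentration as 1 mM, a unit that is uncertain because it is far above the usual range for degraders. Each of the 4 groups (H1975 DMSO, H1975 ACBI1, HCC44 DMSO and HCC44 ACBI1) held 2 libraries. No label says whether the 2 came from separate cultures, so p-values measure only the spread between these libraries, which may be technical.

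PD-L1, encoded by CD274, and PD-L2, encoded by PDCD1LG2, bind PD-1 on activated T cells and dampen signalling from the T cell receptor. CD276, VTCN1 and HHLA2 encode other members of the B7 family (B7-H3, B7-H4 and B7-H7). LGALS9 encodes galectin-9, a ligand of TIM-3. PVR (CD155) and NECTIN2 (CD112) are bound by the inhibitory receptors TIGIT and, for NECTIN2, PVRIG, and also by the activating receptor DNAM-1. CD47 is the signal that macrophages read through SIRPα as a reason not to engulf a cell. TNFRSF14 (HVEM) binds the inhibitory receptor BTLA and the activating ligand LIGHT. In epithelial tumours CD274 is best known as a gene that interferon-γ induces through JAK kinases and IRF1.

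A stretch upstream of the CD274 transcription start is shown. Of the 9 members matched to RefSeq promoter windows, only CD274 held a match to the IRF pattern. This pattern is GAAA, then any 2 bases, then GAAA. PDCD1LG2 had no such window and was not searched. The window is the 250 bases before each annotated start (GRCh38.p14), and both strands were searched. The pattern had 2 matches, in overlapping positions 208 to 199 and 202 to 193 bases before the start, both on the strand opposite to the gene. In the stretch below, from chr9:5450319-5450364 on the plus strand, capitals mark these matches.
CD274 upstream: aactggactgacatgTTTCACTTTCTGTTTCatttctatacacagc
The IRF pattern occurred in 3.02% of all 35116 promoter windows. The AP-1 pattern TGANTCA occurred in 6.57% of windows and, among the members with windows, in 1 of the 3 windows of HHLA2. A match describes letters in a window and is not evidence of binding.

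Counts assigned to genes ranged from 62467286 to 70455517 per library. Levels are given as CPM, the count of a gene scaled to a common library total with TMM factors. They are values of single libraries or group means (n = 2), in places with ± SD. Where a single value is given per treatment, it is the group mean. Responses are log2 fold changes, in places with ± SE. Every adjusted p comes from the quasi-likelihood test of edgeR, adjusted by Benjamini and Hochberg's method over 21307 genes, and genes under 0.05 are termed called. Of the degrader's targets, SMARCA4 and PBRM1 were called in neither line. SMARCA2 fell in H1975 from 65.6 to 40.7 CPM (log2 fold change -0.69, adjusted p 0.00188). In HCC44 the SMARCA2 mean was 58.8 CPM with DMSO and 60.9 CPM with ACBI1. Epithelial markers (EPCAM, KRT7, KRT8, KRT18, KRT19 and CDH1) were all detected, with a summed level of 5140 to 5390 CPM in H1975 DMSO, 2330 to 2810 CPM in H1975 ACBI1, 940 to 980 CPM in HCC44 DMSO and 1200 to 1660 CPM in HCC44 ACBI1. Their part in the results below was not tested. Of 9 leukocyte markers, CD3D, CD3E and MS4A1 had no count in any library, and the list summed to at most 19.4 CPM, of which CSF1R made up 15.2 CPM in H1975 DMSO. In fibroblast markers, DCN had no count and the list summed to 48.3 to 71.3 and 23.5 to 29.2 CPM in H1975 and to 72.1 to 90.4 and 204 to 408 CPM in HCC44, with DMSO and ACBI1, mostly COL1A1. Endothelial markers summed to at most 4.01 CPM.

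With ACBI1, checkpoint ligand transcripts were lower or not called in both lines, and none was called higher. PDCD1LG2, TNFRSF14, LGALS9 and CD47 fell in both lines. CD276 fell in H1975, and CD274, PVR and NECTIN2 fell in HCC44. In H1975, 5 of the 9 tested members were called lower, where 31.3% of all tested genes were called, 16.7% lower and 14.6% higher. In HCC44, 7 were called lower, where 34.9% of all tested genes were called, 17.4% lower and 17.5% higher. For the 8 members with counts in both lines the median log2 fold change was -0.61 in H1975 and -0.84 in HCC44, beside -0.01 and 0.01 over all tested genes. In bulk RNA, fewer cells that express a gene and less RNA per cell cannot be told apart.

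**Figure D1:**
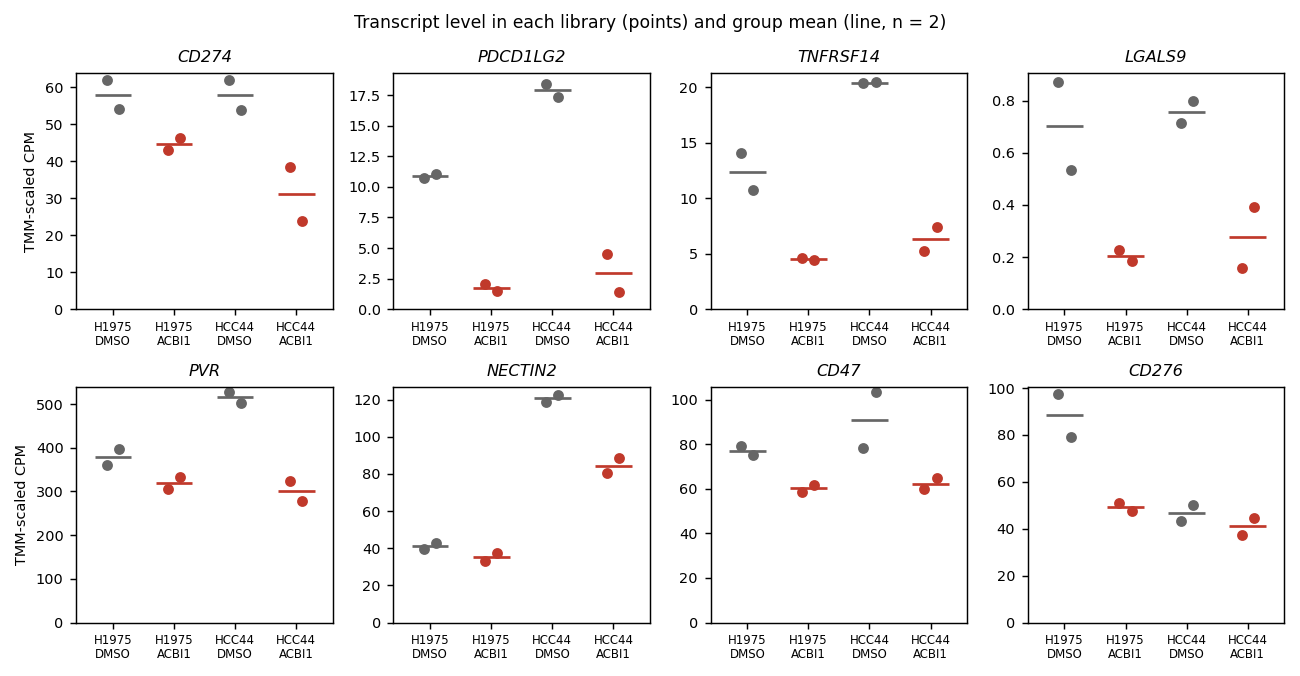
TMM-scaled CPM of 8 members in each of the 8 libraries, by line and treatment (gray, DMSO; red, ACBI1); points are libraries, lines are group means (n = 2), and each vertical axis starts at 0. The ACBI1 points lie below the DMSO points of the same line in every panel except CD276 in HCC44, where the range of 37.4 to 44.8 CPM overlaps that of 43.4 to 50.1 CPM.

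Among the PD-1 ligands, PDCD1LG2 changed more than CD274 in size. PDCD1LG2, which encodes PD-L2, was at 10.7 and 11.01 CPM in the H1975 DMSO libraries and at 2.06 and 1.46 CPM in the H1975 ACBI1 libraries. In HCC44 it was at 18.4 and 17.3 CPM with DMSO and at 4.48 and 1.43 CPM with ACBI1. Groups did not overlap in either line, and the HCC44 ACBI1 libraries lay about as far apart as their mean. The fall was 6.16-fold in H1975 (-2.62 ± 0.45 on the log2 scale, adjusted p 0.00377) and 6.05-fold in HCC44 (-2.60 ± 0.44, adjusted p 0.00278). The lines differed by 0.03 ± 0.59, which did not pass the test (adjusted p 1). The H1975 call was lost without ACBI1 replicate 2 (-2.37, adjusted p 0.0706), and in HCC44 leaving out ACBI1 replicate 1 gave -3.64 and leaving out ACBI1 replicate 2 gave -2.00, called in both cases.

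CD274, which encodes PD-L1, was at 61.8 and 54.0 CPM in H1975 DMSO and at 42.9 and 46.1 CPM in H1975 ACBI1. In HCC44 it was at 61.8 and 53.8 CPM with DMSO and at 38.3 and 23.7 CPM with ACBI1. Every ACBI1 library was below both DMSO libraries of its line, and the widest spread was again in HCC44 ACBI1. The H1975 change of -0.38 ± 0.19 was not called (adjusted p 0.17), but it was called with no filter on low counts (adjusted p 0.00816) and with H1975 fitted alone (adjusted p 0.0254), and it was smaller with library totals (-0.18, adjusted p 0.535). In HCC44 CD274 fell 1.87-fold (-0.90 ± 0.19, adjusted p 0.00621), with values of -1.28 without ACBI1 replicate 1 and -0.59 without ACBI1 replicate 2. The lines differed by -0.52 ± 0.27 in their response, which was not called (adjusted p 0.226), though it was called with no filter (-0.51) and without HCC44 ACBI1 replicate 1 (-0.90).

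CD274 and PDCD1LG2 lie side by side on the plus strand of chromosome 9, at chr9:5450503-5470566 and chr9:5510570-5571254 (GRCh38, GENCODE 29), with 40.0 kb between them. No exon of either overlaps an exon of another annotated gene. PLGRKT is the nearest tested gene on the CD274 side. Its HCC44 means were 18.0 CPM with DMSO and 14.3 CPM with ACBI1 (-0.33, adjusted p 0.0615). In H1975 it rose from a mean of 14.8 to 21.2 CPM (0.51, adjusted p 0.0102). That rise was not called without DMSO replicate 1 or without ACBI1 replicate 2. RIC1, the nearest tested gene on the PDCD1LG2 side, fell in H1975 (-0.50, adjusted p 0.00359). Its HCC44 means were 33.1 CPM with DMSO and 32.8 CPM with ACBI1. JAK2, a kinase of the interferon-γ receptor encoded on the same chromosome arm, was called in neither line. Its means with DMSO and ACBI1 were 10.3 and 10.3 CPM in H1975 and 14.9 and 12.1 CPM in HCC44. Neither flanking gene thus showed a fall in HCC44 that passed the test, while RIC1 did in H1975. Whether genes of this locus fall together was not tested. Over the nearest tested genes on both sides of all members, 17 genes that are no members themselves, 6 were called lower and 2 higher in H1975, and 3 lower and 2 higher in HCC44. Some of these had few counts. In HCC44, IGSF23 (called lower) had 7 and 5 with DMSO and 1 and 0 with ACBI1. MYH15 (called higher) had 15 and 22, then 35 and 36. HES5 had no count in H1975. Of all tested genes, 16.7% were called lower and 14.6% higher in H1975, and 17.4% lower and 17.5% higher in HCC44.

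Among the other B7 family members, only CD276 was expressed above trace level. CD276 was at 97.7 and 79.0 CPM in H1975 DMSO and at 50.8 and 47.4 CPM in H1975 ACBI1, a 1.80-fold fall (-0.85 ± 0.13, adjusted p 0.000854). In HCC44 it was at 43.4 and 50.1 CPM with DMSO and at 37.4 and 44.8 CPM with ACBI1 (-0.19 ± 0.13, adjusted p 0.304). The H1975 groups were apart and the HCC44 groups overlapped. Their responses differed past the threshold (0.66 ± 0.18, adjusted p 0.03). It was not called with library totals (0.55, adjusted p 0.0537), nor without any one of H1975 ACBI1 replicate 2 (0.59), H1975 DMSO replicate 1 (0.50), HCC44 ACBI1 replicate 2 (0.53) and HCC44 DMSO replicate 1 (0.56). NPTN, the tested gene nearest to CD276 on its upstream side, 49.8 kb away on chromosome 15, also fell in H1975 (-0.76, adjusted p 0.000801) and not past the threshold in HCC44 (-0.23, adjusted p 0.142).

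VTCN1 and HHLA2 were near the counting limit. VTCN1 had 15 and 17 counts in the H1975 DMSO libraries and 7 and 5 in the H1975 ACBI1 libraries. The ratio of ACBI1 to DMSO was 0.339, with an exact 95% interval of 0.159 to 0.677 that covers counting error only, and the change was not called (adjusted p 0.0657), though it was with H1975 fitted alone (adjusted p 0.0445). VTCN1 had no count in any HCC44 library, which allows up to 0.0237 CPM over the DMSO pair and 0.0238 CPM over the ACBI1 pair (3 counts per pair). Against that floor VTCN1 was 10.2-fold higher in H1975 DMSO than in HCC44 DMSO. This takes its 32 counts in H1975 DMSO as exact, so it is not a lower limit that covers their counting error. HHLA2 had 1 and 0 counts in H1975 DMSO and 6 and 5 in H1975 ACBI1, and 2 counts over all 4 HCC44 libraries. The H1975 ratio was 9.95 with a counting interval of 1.45 to 428, and it was not called when the filter was lifted (adjusted p 0.167).

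TNFRSF14, the BTLA ligand HVEM, fell in both lines. It was at 14.0 and 10.8 CPM in H1975 DMSO and at 4.64 and 4.44 CPM in H1975 ACBI1. In HCC44 it was at 20.4 and 20.4 CPM with DMSO and at 5.201 and 7.44 CPM with ACBI1. The ACBI1 and DMSO libraries were well apart in both lines. The fall was 2.73-fold in H1975 (-1.45 ± 0.20, adjusted p 0.0004) and 3.23-fold in HCC44 (-1.69 ± 0.19, adjusted p 9.7e-05), called with each library left out in turn. Between the lines the response differed by -0.24 ± 0.27 (adjusted p 0.594). TNFRSF14-AS1, an antisense gene named here after its values were seen, shares exon bases with 13.4% of the TNFRSF14 exon length. It had 144 and 183 counts in H1975 DMSO and 33 and 41 in H1975 ACBI1, and 158 and 174 against 12 and 14 in HCC44. Because no strand setting is given in the sources used here, reads of the pair cannot be told apart within the shared exon bases.

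LGALS9, which encodes the TIM-3 ligand galectin-9, was low and fell in both lines. It had 56 and 36 counts in H1975 DMSO against 17 and 13 in H1975 ACBI1, and 45 and 51 in HCC44 DMSO against 10 and 25 in HCC44 ACBI1. No ACBI1 library reached the level of a DMSO library of its line. The fall was 3.39-fold in H1975 (-1.76 ± 0.45, adjusted p 0.0128) and 2.72-fold in HCC44 (-1.44 ± 0.44, adjusted p 0.0254). The H1975 call was lost without ACBI1 replicate 2 (-1.60) or DMSO replicate 1 (-1.37), and the HCC44 call without DMSO replicate 1 (-1.53), DMSO replicate 2 (-1.36) or ACBI1 replicate 1 (-0.94). In HCC44 without ACBI1 replicate 2 the value was -2.23. Counts of LGALS9 are uncertain because the paralogs LGALS9B and LGALS9C are near-identical; those had 9 and 11, and 16 and 10 counts in HCC44 DMSO.

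The TIGIT ligands fell in HCC44. PVR was at 528 and 503 CPM in HCC44 DMSO and at 324 and 279 CPM in HCC44 ACBI1, a 1.71-fold fall (-0.78 ± 0.10, adjusted p 0.000193). In H1975 it was at 361 and 397 CPM with DMSO and at 305 and 334 CPM with ACBI1 (-0.25 ± 0.10, adjusted p 0.08). Both lines had every ACBI1 library below every DMSO library, by a narrower gap in H1975. The difference between the lines was called (-0.53 ± 0.14, adjusted p 0.0246), but was not called without any one of H1975 ACBI1 replicate 2 (-0.48), H1975 DMSO replicate 1 (-0.45), HCC44 ACBI1 replicate 2 (-0.42), HCC44 DMSO replicate 1 (-0.49) and HCC44 DMSO replicate 2 (-0.56). NECTIN2 was at 119 and 122 CPM in HCC44 DMSO and at 80.4 and 88.6 CPM in HCC44 ACBI1 (-0.51 ± 0.10, adjusted p 0.0024). In H1975 it was at 39.4 and 42.8 CPM with DMSO and at 32.9 and 37.7 CPM with ACBI1 (-0.22 ± 0.10, adjusted p 0.121), and the response differed between the lines by -0.29 ± 0.14 (adjusted p 0.182, not called). PVR and NECTIN2 both lie on the plus strand of chromosome 19, at chr19:44643798-44663583 and chr19:44846175-44889228, 183 kb apart. PVR shares 3.44% of its exon bases with CEACAM19, and NECTIN2 shares 3.42% with an antisense gene.

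CD47, the ligand of SIRPα, fell by the least of the members called in both lines. It was at 79.2 and 75.2 CPM in H1975 DMSO and at 58.6 and 62.0 CPM in H1975 ACBI1. In HCC44 it was at 78.6 and 104 CPM with DMSO and at 59.8 and 65.0 CPM with ACBI1. Groups did not overlap, and HCC44 DMSO had the widest spread. The HCC44 fall was 1.46-fold (-0.55 ± 0.12, adjusted p 0.00565) and was not called without DMSO replicate 2 (-0.33, adjusted p 0.0733). The H1975 fall was 1.28-fold (-0.36 ± 0.12) and lay at the threshold (adjusted p 0.048). The H1975 call was lost with DESeq2, with RLE factors, with library totals (-0.15, adjusted p 0.349) and with each H1975 library left out (-0.37 to -0.28). QPCTL and QPCT encode glutaminyl cyclases, of which QPCTL modifies CD47 so that SIRPα binds it. QPCTL means with DMSO and ACBI1 were 17.5 and 19.3 CPM in H1975 and 55.4 and 52.2 CPM in HCC44, called in neither line. QPCT, named after its values were seen, rose in H1975 from 0.496 to 1.61 CPM (1.68, adjusted p 0.0155), a call lost without DMSO replicate 1 (1.29) or ACBI1 replicate 2 (1.16), and was not called in HCC44.

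**Figure D2:**
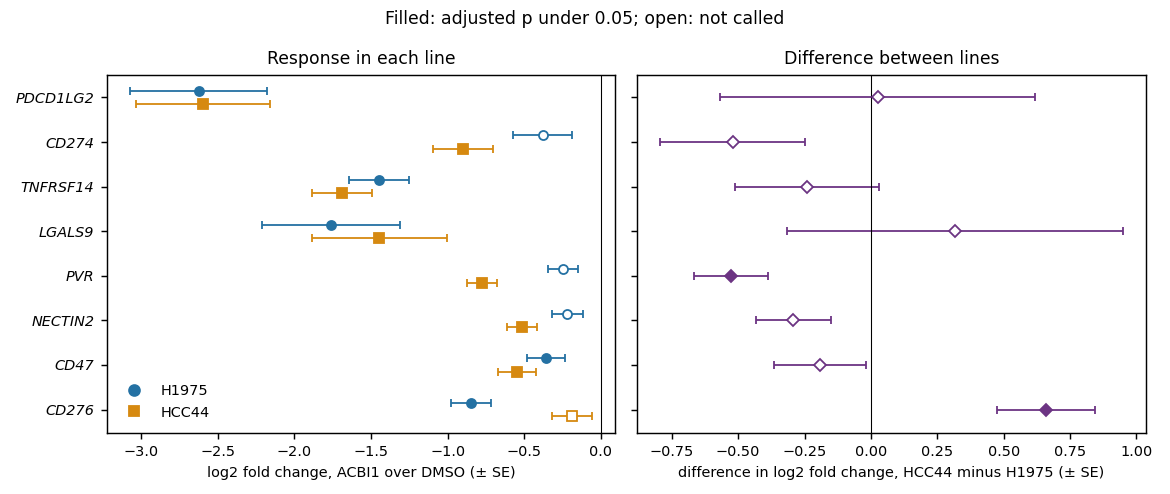
Log2 fold change of ACBI1 over DMSO in each line (left; circles, H1975; squares, HCC44) and its difference, HCC44 minus H1975 (right), for 8 members; bars are ± SE from the fit, filled symbols have an adjusted p under 0.05. All 16 values on the left are below 0, and on the right only PVR (-0.53) and CD276 (0.66) are filled.

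Both ACBI1 libraries were below both DMSO libraries for all 9 tested members in H1975, an order that 34.2% of all tested genes showed (33.1% showed the opposite order), and for 7 in HCC44, where 32.7% did (34.1% the opposite). The filter favours this order for VTCN1, which passed only through its H1975 DMSO libraries (15 and 17 counts). HHLA2, which the filter removed, had the opposite order in H1975 (1 and 0 counts with DMSO, 6 and 5 with ACBI1). A difference between the lines was called for 1 member in each direction, CD276 and PVR, where 18.6% of tested genes were called, 10.2% with a more positive and 8.4% with a more negative response in HCC44. Directions are relative to the TMM scale: with library totals in their place the median gene shifted by 0.203 in H1975 and by -0.112 in the difference between the lines (log2). Rises then made up 72.3% of the H1975 calls over all genes, against 46.6% with TMM factors, and 60.5% against 50% of the HCC44 calls. No member with counts in the line changed sign in either line under library totals or RLE factors, and the sign of the PDCD1LG2 difference between the lines did change under both.

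To compare the genes with each other, CPM was divided by exon length, counting every annotated exon base of a gene. That length can exceed those of the transcripts present, which were not measured, so order and shares depend on it. The SD covers only the spread between libraries. In H1975 DMSO, PVR was at 108 ± 7.2 CPM per kb and made up 65.3% of the summed level of the 10 genes. CD276 (15.9 ± 2.4) and CD274 (14.1 ± 1.4) followed, within their spread of each other, then NECTIN2 (10.97 ± 0.65), CD47 (9.38 ± 0.35), PDCD1LG2 (4.59 ± 0.086) and TNFRSF14 (1.99 ± 0.37). LGALS9 was at 0.123 ± 0.042 and VTCN1 at 0.080 ± 0.0043 CPM per kb, whose spreads touch. In HCC44 DMSO the order was PVR (146 ± 5.0), NECTIN2 (32.2 ± 0.72), CD274 (14.1 ± 1.4), CD47 (11.1 ± 2.2), CD276 (8.43 ± 0.86), PDCD1LG2 (7.56 ± 0.33) and TNFRSF14 (3.28 ± 0.0084), with CD274 and CD47 within their spread, as were CD276 and PDCD1LG2. With ACBI1, PDCD1LG2 and TNFRSF14 came to lie within their spread of each other, at 0.744 ± 0.18 and 0.730 ± 0.023 in H1975 and at 1.25 ± 0.91 and 1.02 ± 0.26 CPM per kb in HCC44. The summed level of the 10 genes went from 163 and 167 to 124 and 134 CPM per kb in H1975, and from 225 and 221 to 140 and 126 CPM per kb in HCC44.

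**Figure D3:**
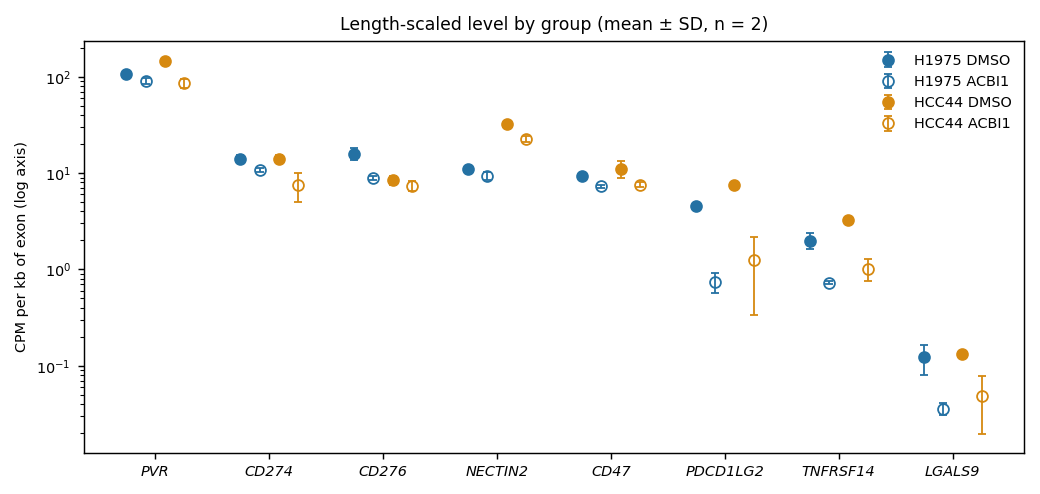
Level per exon length (CPM per kb, log axis) of 8 members in the 4 groups, as mean ± SD (n = 2); filled symbols are DMSO and open symbols ACBI1. PVR is highest in every group, at 85.6 to 146 CPM per kb, and LGALS9 lowest of those drawn, at 0.0359 to 0.133.

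Without the degrader, the lines carried different amounts of several ligands. NECTIN2 was 2.93-fold higher in HCC44 DMSO than in H1975 DMSO (log2 difference 1.55 ± 0.10, adjusted p 2e-07). TNFRSF14 was 1.65-fold higher (0.72 ± 0.19, adjusted p 0.00541) and PVR 1.36-fold higher (0.44 ± 0.10, adjusted p 0.00211). CD276 was 1.89-fold lower in HCC44 (-0.92 ± 0.13, adjusted p 8.27e-05), and VTCN1, with no count in HCC44, was called lower there. VTCN1 passed the filter only through H1975 DMSO, the group where it is high, so the filter favours that call. CD274 was at 57.9 ± 5.6 and 57.8 ± 5.7 CPM, a log2 difference with an SE of 0.19. PDCD1LG2 (0.72 ± 0.40, adjusted p 0.149), CD47 and LGALS9 were not called, though PDCD1LG2 was with the 4 DMSO libraries fitted alone (0.76) and with no filter (0.70), and CD47 without HCC44 DMSO replicate 1 (0.43). Of the tested members 3 were called higher in HCC44 and 2 lower, where 67.9% of all tested genes were called, 31.6% higher and 36.4% lower. The line and any batch of its cultures cannot be told apart.

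The gene whose profile over the 8 libraries was most like that of CD274 was FOSL1, which encodes the AP-1 subunit FRA-1. Likeness was the root mean square distance of log2 CPM profiles, each centred on its own mean, among 11658 genes whose mean was 5 CPM or more. FOSL1 lay at 0.0845, followed by SLC2A1 (0.122), which encodes the glucose transporter GLUT1, TOMM34 (0.131), SEC61G (0.137) and SEC24C (0.147). FOSL1 was at 259 and 231 CPM in H1975 DMSO, 214 and 196 in H1975 ACBI1, 294 and 239 in HCC44 DMSO and 161 and 107 CPM in HCC44 ACBI1. In H1975 ACBI1 its replicate order was opposite to that of CD274. Of the members, PVR came closest to CD274 at 0.279 (rank 334), and PDCD1LG2 was far at 1.03 (rank 9958). These distances rest on 4 groups of 2 libraries and are a description.

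Among genes that act on CD274 transcription, some fell in both lines and 4 responded differently between them. Of 13 such genes, all tested, 6 were called lower and none higher in H1975, and 4 lower and 2 higher in HCC44. That is 46.2% called in each line, beside 31.3% and 34.9% of all tested genes. In H1975, HIF1A fell from 419 to 181 CPM (-1.21, adjusted p 5.48e-05), IRF1 from 41.8 to 22.3 CPM (-0.91, adjusted p 0.000164) and, named after its values were seen, JAK1 from 166 to 108 CPM (-0.62, adjusted p 0.00178). In HCC44, the means with DMSO and ACBI1 were 47.4 and 40.0 CPM for IRF1 (-0.24, adjusted p 0.092). For JAK1 they were 246 and 286 CPM (0.22, adjusted p 0.142). In HCC44 the AP-1 genes JUN (781 to 361 CPM, -1.11, adjusted p 0.0173) and FOSL1 (267 to 134 CPM, -0.99, adjusted p 0.00286) fell. Neither differed past the threshold from its response in H1975 (adjusted p 0.402 and 0.0778), though FOSL1 did with DESeq2, with no filter and without HCC44 ACBI1 replicate 1 (-1.06). HIF1A fell in HCC44 too (-0.48, adjusted p 0.00762). The receptor chain IFNGR1 was called lower in H1975 (-0.36, adjusted p 0.0229) and in HCC44 (-0.74, adjusted p 0.000324), without a called difference (adjusted p 0.0959), and its H1975 call was lost with DESeq2, with library totals and without any one H1975 library (-0.44 to -0.24). The JUN call was lost with no filter and without HCC44 ACBI1 replicate 1 (-0.85), and that of HIF1A without HCC44 DMSO replicate 2 (-0.36) or ACBI1 replicate 1 (-0.33). NFKB1 (0.47, adjusted p 0.00238) and IFNGR2 (0.45, adjusted p 0.00732) rose in HCC44, IFNGR2 not without DMSO replicate 1 (0.34). For 4 of the 13 (30.8%, beside 18.6% of all tested genes) the lines differed past the threshold, each with the more positive response in HCC44: IRF1, HIF1A, IFNGR2 and JAK1. This call was lost for IRF1 without H1975 DMSO replicate 2 (0.51) or ACBI1 replicate 2 (0.62), for HIF1A without HCC44 DMSO replicate 1 (0.63), and for IFNGR2 without H1975 ACBI1 replicate 1 (0.58) or HCC44 DMSO replicate 1 (0.60).

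Among 8 genes that act on PD-L1 protein, CMTM6, which protects PD-L1 from degradation, fell in H1975 from 118 to 87.9 CPM (-0.42, adjusted p 0.00582). In HCC44 its mean was 73.8 CPM with DMSO and 84.6 CPM with ACBI1 (0.20, adjusted p 0.124). The H1975 call was lost with library totals (-0.22) and without DMSO replicate 2 or ACBI1 replicate 2. Its paralog CMTM4 rose in both lines (0.66, adjusted p 0.000412, and 0.38, adjusted p 0.00752), the HCC44 rise not being called without DMSO replicate 1 (0.30). GSK3B also fell in H1975 (-0.27, adjusted p 0.0485), a call lost in 7 of 10 alternatives. In HCC44, TRAPPC4 (-0.43), SPOP (-0.41) and COPS5 (-0.34) fell, with adjusted p-values of 0.0159, 0.00635 and 0.0207, and each call was lost without at least 1 library, DMSO replicate 2 among them.

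Of 17 other ligands of inhibitory receptors, 13 were tested, with 7 lower and 1 higher in H1975 and 4 lower and 2 higher in HCC44. The share called was 61.5% in H1975 and 46.2% in HCC44, beside 31.3% and 34.9% of all tested genes. VSIR, which encodes VISTA, rose in H1975 from 13.6 and 18.9 to 32.8 and 50.7 CPM (1.36, adjusted p 0.00212). It was at 4.67 and 4.81 against 2.78 and 3.89 CPM in HCC44 (-0.51, adjusted p 0.157). LGALS3, which encodes the LAG-3 ligand galectin-3, fell in H1975 from 123 to 64.0 CPM (-0.94, adjusted p 3.26e-05) and in HCC44 from 98.8 to 83.3 CPM (-0.25, adjusted p 0.0357), where the call was lost in 8 of 10 alternatives. CD24, the Siglec-10 ligand (122 to 54.4 CPM, adjusted p 0.0288), and LGALS1 (459 to 208 CPM, adjusted p 0.0387) fell in H1975, both calls being lost with library totals, with no filter and without either DMSO replicate, and that of LGALS1 also without either ACBI1 replicate. NECTIN1 fell in H1975 (73.7 to 59.3 CPM, -0.31, adjusted p 0.0307) and in HCC44 (39.3 to 29.9 CPM, -0.40, adjusted p 0.00962). Its H1975 call was lost with DESeq2, RLE factors and library totals (-0.11) and without DMSO replicate 2 (-0.19) or either ACBI1 replicate, and its HCC44 call without DMSO replicate 1 (-0.36) or ACBI1 replicate 2 (-0.33). In HCC44, NECTIN3 rose from 22.8 to 36.6 CPM (0.69, adjusted p 0.0121) and HMGB1 from 189 to 237 CPM (0.32, adjusted p 0.0383). The NECTIN3 call was lost without DMSO replicate 1 (0.62), DMSO replicate 2 (0.75) or ACBI1 replicate 2 (0.51), and that of HMGB1 with HCC44 fitted alone (0.33) and without DMSO replicate 1 (0.17), ACBI1 replicate 1 (0.37) or ACBI1 replicate 2 (0.28). CEACAM1, a TIM-3 ligand, and SIGLEC15, both under 1 CPM as group means and named after their values were seen, were called lower in both lines. From DMSO to ACBI1, CEACAM1 counts went from 79 and 47 to 12 and 9 in H1975, and from 29 and 27 to 3 and 13 in HCC44. Those of SIGLEC15 went from 25 and 44 to 3 and 7, and from 16 and 9 to 3 and 0. SIGLEC15 passed the filter only through DMSO libraries, which favours a fall. In HCC44 the CEACAM1 call was lost without either DMSO replicate or ACBI1 replicate 1 (-1.10), and the SIGLEC15 call without DMSO replicate 1 (-2.48) or ACBI1 replicate 2 (-2.00).

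The list of costimulatory molecules holds ligands of activating receptors and CD40, itself a receptor, and included rises. Of 10 listed genes 7 were tested, with 3 higher and 2 lower in H1975 and 1 in each direction in HCC44. The share called was 71.4% in H1975 and 28.6% in HCC44, beside 31.3% and 34.9% of all tested genes. ICOSLG, the ligand of ICOS on T cells, rose in H1975 from 3.01 and 3.40 to 9.20 and 9.23 CPM (1.52, adjusted p 0.000368). In HCC44 it rose from 1.73 and 1.16 to 8.85 and 9.79 CPM (2.69, adjusted p 1.2e-05). The ACBI1 libraries of both lines thus lay near 9 CPM. The rise differed between the lines (1.17, adjusted p 0.0188), a call lost without H1975 DMSO replicate 2 (1.02), H1975 ACBI1 replicate 1 (1.13), H1975 ACBI1 replicate 2 (1.14) or HCC44 DMSO replicate 2 (0.91). In H1975, CD70 rose from 17.5 to 31.6 CPM (0.86, adjusted p 0.00109) and CD40 from 17.3 to 25.2 CPM (0.55, adjusted p 0.00753), the latter not without ACBI1 replicate 2 (0.48). CD58 fell in H1975 from 9.34 to 6.97 CPM (-0.42, adjusted p 0.0421), a call lost with DESeq2, RLE factors and library totals and without each library of that line. TNFSF14, which encodes the TNFRSF14 ligand LIGHT and was named after its values were seen, was called lower in both lines (0.442 to 0.0674 CPM in H1975, adjusted p 0.0047, and 1.15 to 0.356 CPM in HCC44, adjusted p 0.00929). The HCC44 call was lost without DMSO replicate 2 (-1.48) or ACBI1 replicate 1 (-1.38).

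**Figure D4:**
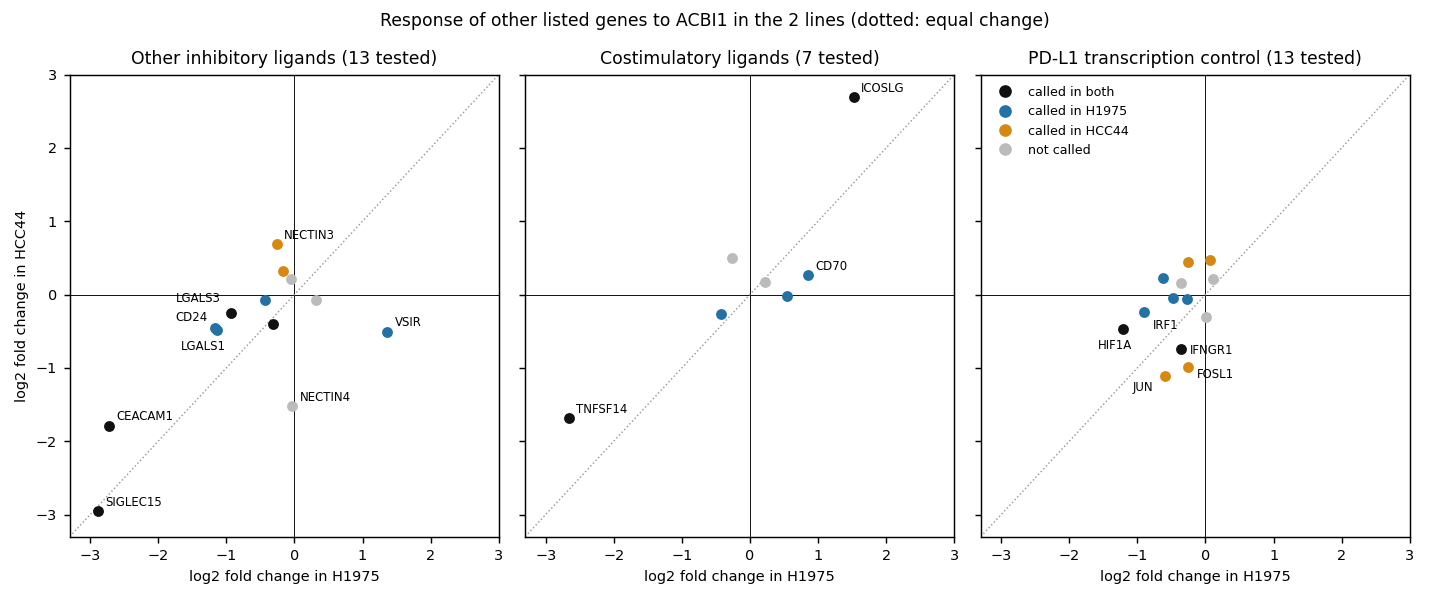
Log2 fold change in H1975 (horizontal) against HCC44 (vertical) for the tested genes of 3 lists; colours show in which line the adjusted p was under 0.05, and the dotted line marks equal change. ICOSLG (1.52 and 2.69) is at the upper right, VSIR (1.36 and -0.51) stands apart to the right, and IRF1 and HIF1A lie to the left of JUN and FOSL1, which are lower.

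Of 14 receptors of these ligands 6 were tested. SIRPA, which encodes the CD47 receptor SIRPα, fell in H1975 from 94.1 and 111 to 45.3 and 51.6 CPM (-1.08, adjusted p 0.000186) and in HCC44 from 26.6 and 23.7 to 17.4 and 14.4 CPM (-0.66, adjusted p 0.00284). It was the only receptor of the list above 5 CPM in any group. LAG3 and PDCD1, named after their values were seen, were low. LAG3 was called lower in H1975 (2.82 to 1.34 CPM, adjusted p 0.0353) and higher in HCC44 (0.545 to 1.41 CPM, adjusted p 0.0173). Its H1975 call was lost with library totals and without DMSO replicate 1 (-0.66), ACBI1 replicate 1 or ACBI1 replicate 2, and its HCC44 call without either DMSO replicate or ACBI1 replicate 2 (0.79). PDCD1 was called lower in HCC44 (0.948 to 0.198 CPM, adjusted p 0.00443).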

How the data were processed

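The authors deposited 1 table of raw read counts per library, with the summary rows of htseq-count. Per the submitters' processing notes, TopHat2 2.1.1, HTSeq 0.11.0 and the build hg38 were used; the strand setting and annotation release are not given in the sources used here. The 5 summary rows, 14.3 to 15.8% of each table's total, were left out. Genes were filtered with filterByExpr on the 4 groups (21307 kept) and fitted with edgeR 4.0.16 (R 4.3.3) as 1 mean per group over all 8 libraries, with TMM factors and robust two-sided quasi-likelihood tests of ACBI1 against DMSO in each line, the difference between lines, and the DMSO groups. The SE is the log2 fold change divided by the square root of F. Exon lengths and gene positions came from GENCODE 29 (GRCh38) by symbol, promoter windows from RefSeq. The procedure was also run on simulated data in which a small share of genes changed. In these data 31.3% of tested genes were called in H1975 and 34.9% in HCC44, so that run does not check the scaling used here. Replicates differed by more than sampling noise (chi-square per degree of freedom 21.7 to 43.5).

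The members and lists were chosen with earlier results of these data known. All members are named; of each other list, up to 3 called rises and falls per line (at least 5 CPM as the mean of a group), plus JAK2, IRF1, CMTM6, QPCTL, the degrader's targets, genes flanking members and the 5 genes most like CD274. One gene of the list on CD274 transcription is not reported here and is left out of its counts. Alternatives were DESeq2 1.42.0, RLE factors, library totals, no filter, separate fits of each line or of the DMSO libraries, a block for the replicate number, and each library left out. Figures were drawn with matplotlib 3.10.9.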

Additional observations from a re-analysis of the deposited data

Results flagged for a closer look

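For 2 of the 9 tested checkpoint ligands (22.2%) a test of the difference itself found unequal responses to ACBI1 in the 2 lines. That share was near the 18.6% of all tested genes. VTCN1 is among the 9 but had no count in HCC44, so its difference could not be estimated. The log2 difference, HCC44 minus H1975, was 0.66 for CD276 and -0.53 for PVR.

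The same test was passed by other named genes (edgeR's quasi-likelihood test, Benjamini-Hochberg adjusted p under 0.05). Among genes that act on PD-L1 the log2 difference was 0.66 for IRF1, 0.84 for JAK1, 0.74 for HIF1A, 0.70 for IFNGR2 and 0.62 for CMTM6. Among other ligands and receptors it was -1.87 for VSIR, 0.69 for LGALS3, 0.95 for NECTIN3, 0.50 for HMGB1, 1.17 for ICOSLG, -0.57 for CD40 and 2.44 for LAG3. It was -1.38 for TNFRSF14-AS1, 0.74 for SMARCA2, -0.84 for PLGRKT, 0.48 for RIC1, 0.53 for NPTN, -0.85 for TOMM34 and -0.83 for SEC61G. The calls of PVR, NECTIN3, HMGB1, CD40, TNFRSF14-AS1, RIC1 and NPTN were lost with at least 5 of the 8 libraries left out singly, and those of CD276 and ICOSLG with 4 of the 8.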

How the results depend on the processing

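Of 363 values of single members under the alternatives, 325 kept their side of the threshold (17 of them with the opposite sign, called under neither setting), 24 lost a call, 13 gained one and 1 turned with a call. The PDCD1LG2 difference between the lines turned from 0.03 to -1.01 without HCC44 ACBI1 replicate 1, and was 0.63 without HCC44 ACBI1 replicate 2. Of 1482 values of 45 other named genes, 157 lost a call, 55 gained one, and 42 had the opposite sign, called under neither setting. No member was called higher in either line under any alternative. With the replicate number as a block, 8 members were called lower in H1975, CD274, PVR and NECTIN2 being added, 3 had a more negative response in HCC44, and the difference was called for 6358 genes; the block ended the HCC44 call of JUN (-1.09, adjusted p 0.116). The labels name no shared batch for equal numbers, and the deviations of same-numbered libraries correlated at 0.374 in H1975 and 0.109 in HCC44. Library totals left 0 members with a more positive response in HCC44, and no filter gave 2 with a more negative one. With 1 library left out, the lone library of a group is assumed to vary like the others. Then 3690 to 4590 genes were called in H1975, 4945 to 6629 in HCC44 and 2341 to 4134 for the difference; members called lower were 2 to 4 in H1975 and 5 to 7 in HCC44, and those called for the difference 0 to 1 more positive and 0 to 3 more negative. The cause of these changes was not tested, other than fewer samples. Depth limits VTCN1, HHLA2 and LGALS9.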
